A study of Mus musculus with 2 samples.

Results

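The FoxO transcription factors and the ubiquitin ligases of muscle atrophy were examined in the gastrocnemius (GAS) muscle of *Gde5* skKO mice. The set was chosen by gene name and not by measured values, though earlier results of these data were known. It holds 10 genes: the factors *Foxo1*, *Foxo3* and *Foxo4*, and the ligases *Fbxo32*, *Trim63*, *Fbxo30*, *Fbxo21*, *Nedd4*, *Trim32* and *Traf6*. All 10 were found among the 27570 genes with a probe on the arrays, under a current or an older name, with 21 probes between them. *Gde5*, listed today as Gpcpd1, encodes an enzyme that splits glycerophosphocholine. Male mice aged 15 weeks on a normal diet were used, and the labels name 5 mice of each genotype. *Gde5* skKO mice carry a floxed *Gde5* exon and a Cre transgene under the human α-skeletal actin promoter, so the deletion is limited to skeletal muscle fibres, and nerve, vessel, fat and blood cells in the same tissue keep the gene. The microarray labels call the control animals wild-type and do not say whether they carried the floxed alleles or the transgene. RNA of both genotypes was labelled with different dyes and hybridised together on each of 2 arrays, with *Gde5* skKO in Cy5 on array 1 and in Cy3 on array 2. Neither pooling of the RNA, nor whether both arrays held the same RNA, nor glucose injection or fasting is given in the labels, so each array counts as a hybridization and the spread between mice could not be tested. The paper describes array comparisons of the genotypes after a glucose injection and with fasting. Which of these states the arrays used here hold is not given.

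FoxO factors are kept in the cytoplasm by the kinase Akt when insulin and IGF-1 signal, and enter the nucleus when that signal is low. In muscle nuclei they raise the transcription of genes for protein breakdown, among them the ligases atrogin-1 (*Fbxo32*) and MuRF1 (*Trim63*), which attach ubiquitin to proteins and so mark them for the proteasome. Both ligase transcripts are widely used as markers of atrophy from fasting, denervation and disuse. Because FoxO activity is set largely by phosphorylation and location, transcript levels of the factors do not report it.

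Each ratio below is the log2 ratio of *Gde5* skKO over WT, converted from the deposited log10 ratio of the dyes, and is followed by its error from the scanner software, Agilent Feature Extraction. The brightest probe, by the mean log2 processed signal over both channels of both arrays, stood for a gene, and the gene was tested when, on each array, that probe rose well above background with 1 dye or both. It was called higher or lower when the software's p-value was under 0.05 on both arrays with the same direction. By this rule 450 of 13571 tested genes, or 3.32%, were called, 1.58% higher and 1.74% lower. None of the 8 tested members was called, by this rule or by limma's moderated test, in which 8.51% of genes had an unadjusted p under 0.05 and 0.803% an adjusted one. The lowest limma p-value among the members was 0.101 unadjusted and 0.741 adjusted, both for *Trim63*. The software adds a multiplicative error of 0.1 in each channel that was set in advance, which alone gives a log2 error of 0.204. Among genes with signal in both channels the smallest log2 ratio that passed on an array was 0.335 on array 1 and 0.35 on array 2. Larger ratios could also fail at an ordinary error, so these smallest values are not a general cutoff. A *Nedd4* probe at 0.3637 on array 2, for example, had a Feature Extraction p-value of 0.0786. Its error was 0.2068, against a median of 0.2088 on that array among genes with signal in both channels. The 95% intervals given for means were built from these errors, take the arrays as independent, and cover neither mice nor RNA samples.

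The labels were checked first. *Gde5* had 4 probes, of which 3 gave log2 ratios between -3.29 and -2.59, while the probe that stood for the gene, with signals of 6917 and 7610 in WT, gave -0.05 on array 1 and -0.47 on array 2. That mean takes in the knockout signal, and by WT signal alone the probes starting at 132221088 and 132221110 on chromosome 2 were brighter, at 13390 and 17840 and at 13030 and 15750. Which of these probes lie in the deleted exon was not determined. All 9 skeletal muscle markers, such as *Ckm* and *Acta1*, were tested, and none was called. Of 7 adipocyte markers 6 were tested and 5 were called lower, namely *Adipoq*, *Cfd*, *Retn*, *Cidec* and *Plin1*, with mean log2 ratios from -1.0 to -0.69. *Fabp4* had a mean of 0.05 and *Lep* was not well above background. The summed signal of the 7 adipocyte markers was 43240 and 41150 in *Gde5* skKO and 43780 and 45080 in WT. *Fabp4* made up most of these sums, with 38870 and 36770 in *Gde5* skKO and 35640 and 37190 in WT. Without it the sums were 4373 and 4385 in *Gde5* skKO and 8147 and 7890 in WT. In this bulk tissue, fewer cells of a type and less RNA per cell cannot be told apart.

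*Foxo1*, the FoxO factor whose transcript could be followed here, went opposite ways on the arrays. Its brightest probe, at chr3:52434190-52434249 on the plus strand of mm8, had a processed signal of 1714 in *Gde5* skKO and 1974 in WT on array 1, and of 2190 and 1839 on array 2. The order of the genotypes turned over between the arrays. The log2 ratio was -0.20 ± 0.21 (p-value of Feature Extraction 0.32) on array 1 and 0.25 ± 0.21 (0.221) on array 2, with a mean of 0.02 and an interval from -0.26 to 0.31. The other *Foxo1* probe, at chr3:52437296-52437355, gave -0.05 and 0.01. The interval of the brightest probe spans folds from 0.835 to 1.24. A change inside it could not be told from none, and the interval is not a limit of detection.

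*Foxo3* and *Foxo4* had no measurable level in either genotype on these probes. *Foxo3*, a factor that switches on both autophagy and proteasome genes in muscle, is listed as Foxo3a with 2 probes on chromosome 10, and its signals lay between 5.633 and 28.21 in the 8 readings. *Foxo4*, the X-linked member of the family, is listed as Mllt7 with 1 probe and had signals between 16.19 and 32.3. None of these spots was well above background in any channel. No fold is therefore given for either gene, and their transcripts may be present at a level that these probes do not measure.

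*Fbxo32*, which encodes atrogin-1, the F-box subunit of a ligase that targets Eif3f and MyoD, had the same turn between arrays as *Foxo1*. Its only probe, at chr15:58010280-58010339 on the minus strand, had signals of 7546 in *Gde5* skKO and 8324 in WT on array 1, and of 8310 and 7427 on array 2. The ratio was -0.14 ± 0.20 (p-value of Feature Extraction 0.489) and then 0.16 ± 0.20 (0.428). The mean was 0.01 with an interval from -0.27 to 0.29, which spans folds from 0.828 to 1.23.

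*Trim63*, which encodes the sarcomere-bound ligase MuRF1, had ratios below 0 with both probes on both arrays, none of which was called. At chr4:133601186-133601245 on the plus strand, the brightest probe had signals of 20670 in *Gde5* skKO and 24730 in WT on array 1, and of 21770 and 24300 on array 2. The WT signals were above the *Gde5* skKO signals in both hybridizations. The ratios were -0.26 ± 0.21 (p-value of Feature Extraction 0.208) and -0.16 ± 0.20 (0.438), with a mean of -0.21 and an interval from -0.49 to 0.08. The second probe, at chr4:133589380-133589439, gave -0.21 and -0.15, a mean of -0.18. Both probes read RNA of the same hybridizations and are not independent evidence. For *Trim63* the interval spans folds from 0.711 to 1.05.

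*Trim63* is also the only member with a FoxO motif near its start in the sequences searched, which is why its upstream region is shown. FoxO factors bind the core GTAAACA, and this run of letters was searched on both strands of RefSeq promoter windows on GRCm38.p6, from 250 bases before to 50 bases after each start. Such a window was found for 8 of the 10 members, and *Fbxo32* and *Foxo4* had none. Of the 9 windows of these genes 1 held the motif, or 11.1%, against 3.65% of all 32851 windows. Of 24 windows of 21 FoxO target genes 2 held it, or 8.33%, and these belong to *Txnip*, an inhibitor of glucose uptake and thioredoxin, and *Sesn1*, a stress-responsive inhibitor of mTORC1. In the *Trim63* window, at chr4:134314870-134315169 on the plus strand, the motif stands on the other strand at -194 to -188 from the start. In the *Txnip* window, at chr3:96557707-96558006, it stands at -121 to -115. The 250 bases before the *Trim63* start, and the 30 bases around the *Txnip* motif, follow 5′ to 3′ with the motif in capitals.
Trim63: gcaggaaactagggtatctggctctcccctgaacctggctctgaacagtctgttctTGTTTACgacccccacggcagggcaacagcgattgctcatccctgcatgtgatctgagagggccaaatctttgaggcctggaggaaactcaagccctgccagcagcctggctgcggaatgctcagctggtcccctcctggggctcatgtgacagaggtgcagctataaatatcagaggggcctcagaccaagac
Txnip: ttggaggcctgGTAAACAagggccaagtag
A match of letters is a description of the sequence, and no match says only that this run is not in that window.

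*Fbxo30* encodes MUSA1, an F-box protein whose transcript rises after denervation and is held down by BMP signalling. Its brightest probe, at chr10:10988024-10988083, had signals of 840.1 in *Gde5* skKO and 779.2 in WT on array 1, and of 789.5 and 895.6 on array 2, so the genotypes changed order. Its ratios were 0.11 (p-value of Feature Extraction 0.597) and -0.18 (0.377), a mean of -0.04 with an interval from -0.32 to 0.25. The other *Fbxo30* probes gave 0.16 and -0.01, and 0.13 and -0.00. *Fbxo21* encodes the F-box protein also called SMART, another ligase under FoxO control. At chr5:118270918-118270977 it had signals of 2015 in *Gde5* skKO and 2095 in WT on array 1, and of 2163 and 2105 on array 2. The ratios of -0.06 and 0.04 gave a mean of -0.01 with an interval from -0.29 to 0.27. The remaining *Fbxo21* probes were not well above background in both channels of either array, and of these the one with a p-value under 0.05 on array 1, at a ratio of 0.81, had -0.36 on array 2.

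*Nedd4*, a HECT-domain ligase that acts on membrane proteins and signalling receptors and takes part in denervation atrophy, gave different sizes with different probes. Its brightest probe, at chr9:72548065-72548124, had signals of 8660 in *Gde5* skKO and 8560 in WT on array 1, and of 9141 and 8707 on array 2, with ratios of 0.02 and 0.07 and a mean of 0.04. At chr9:72541225-72541284 the signals were 4852 in *Gde5* skKO and 4072 in WT on array 1, and 5128 and 3986 on array 2. There the ratios were 0.25 (p-value of Feature Extraction 0.219) and 0.36 (0.0786), a mean of 0.31 with an interval from 0.02 to 0.59. The remaining probe, listed on the array as EG639396 and named *Nedd4* through RefSeq, lies at chr9:72493465-72493524 and gave 0.23 (0.256) and 0.36 (0.0835), a mean of 0.30 with an interval from 0.01 to 0.58. All 6 readings of *Nedd4* were above 0, but no probe was called. The intervals of the pair with larger ratios lie just above 0 while that of the brightest probe, from -0.24 to 0.33, holds 0, and the difference between probes was not tested.

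*Trim32* and *Traf6*, with the dimmest of the probes tested for the members, each passed the threshold on 1 array alone. *Trim32* encodes a ligase that acts on the thin filament and desmin and is mutated in a limb-girdle muscular dystrophy. Its probe at chr4:65102203-65102262 had signals of 287.7 in *Gde5* skKO and 306 in WT on array 1, and of 232.8 and 328 on array 2. The ratio was -0.09 ± 0.22 (p-value of Feature Extraction 0.689) and then -0.49 ± 0.24 (0.0378), a mean of -0.29 with an interval from -0.61 to 0.03. With normexp background correction and loess normalization its mean was -0.08. The other *Trim32* probe was not well above background in any channel. *Traf6* encodes a ligase that builds signalling rather than degradative ubiquitin chains and passes cytokine signals to NF-κB. At chr2:101501342-101501401 its signals were 242.8 in *Gde5* skKO and 334 in WT on array 1, and 331.3 and 358.8 on array 2. The WT signal was the higher in both hybridizations. The ratio was -0.46 ± 0.22 (p-value of Feature Extraction 0.0351) and then -0.12 ± 0.21 (0.591), a mean of -0.29 with an interval from -0.59 to 0.01, and its limma mean was -0.18 with an adjusted p of 0.754. The second *Traf6* probe was not well above background.

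**Figure D1:**
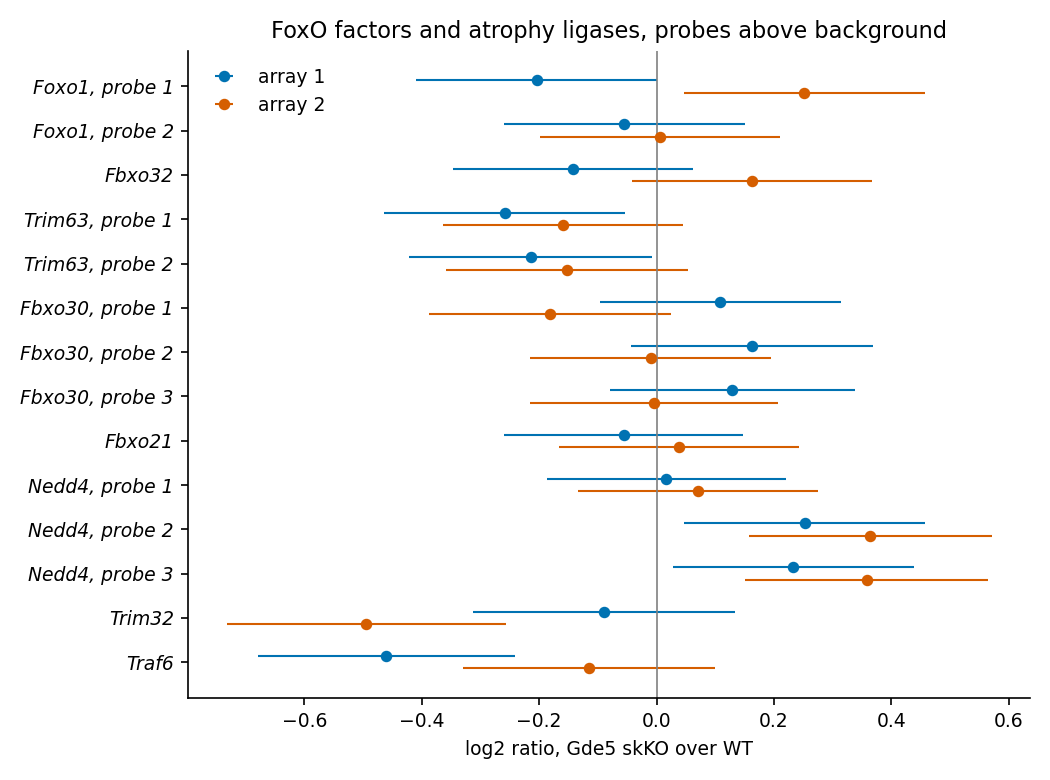
Log2 ratio of *Gde5* skKO over WT on the x axis for each of the 14 member probes well above background, grouped by gene on the y axis, with points for array 1 (blue) and array 2 (orange) and bars of 1 Feature Extraction error. Points of *Foxo1*, *Fbxo32*, *Fbxo30* and *Fbxo21* fall on both sides of 0, both *Trim63* probes lie below 0 and all 3 *Nedd4* probes above it on both arrays.

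**Figure D2:**
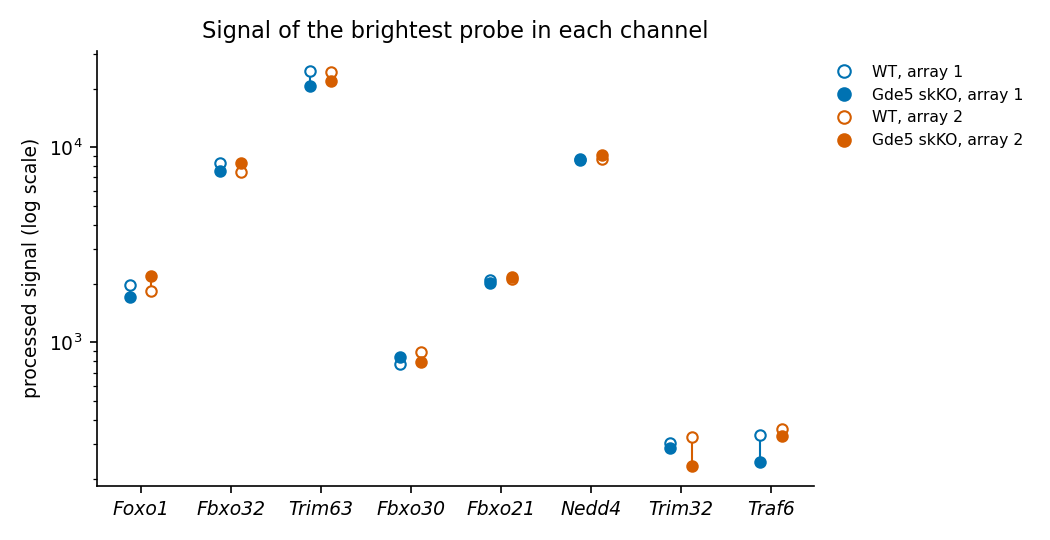
Processed signal of the brightest probe of each tested member on a log axis, with open points for WT and filled points for *Gde5* skKO, and array 1 in blue and array 2 in orange. Signals of 1 gene may be compared between genotypes and arrays, but heights of different genes may not, because probes differ in brightness. For *Trim63*, *Trim32* and *Traf6* the WT point is above the *Gde5* skKO point on both arrays.

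Over the 8 tested members the median log2 ratio was -0.12 on array 1, -0.04 on array 2 and -0.02 for the mean of both, against 0.01 over all tested genes. The members' means lay between -0.29 and 0.04, while the central 95% of all genes lay between -0.53 and 0.55. For 4 of the 8 members, *Trim63*, *Nedd4*, *Trim32* and *Traf6*, the arrays gave ratios of 1 sign, as they did for 54.5% of all tested genes. The gap between the arrays had a median size of 0.30 over the members and 0.20 over all genes with signal in both channels.

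**Figure D3:**
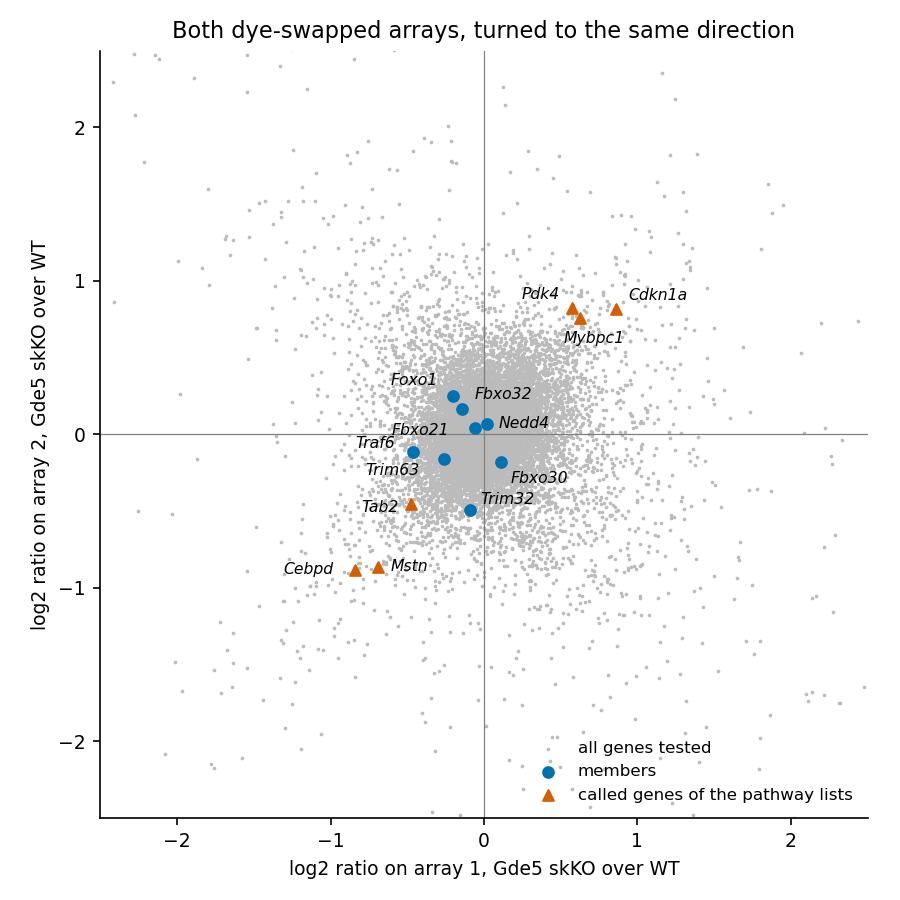
Log2 ratio of *Gde5* skKO over WT on array 1 (x axis) and array 2 (y axis) for all tested genes (grey), the 8 members (blue) and the 6 called genes of the pathway lists (orange triangles), with 13531 genes inside the plotted range and 40 outside it. The members lie within the cloud around 0, and the called genes lie along the diagonal away from it.

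The genes around this pathway were described with 6 lists of 107 genes, of which 100 were tested, 5 were too dim and 2 had no probe. Of the 100, 3 were called higher and 3 lower, against 1.58% and 1.74% of all tested genes, and the median log2 ratio was 0.00. The 6 called genes fell in the FoxO target, substrate and transcription factor lists, and the other 3 lists had none. By limma 13 of the 100 had an unadjusted p under 0.05 and 4 an adjusted one, against 8.51% and 0.803% of all tested genes. The difference between the lists and all genes was not tested.

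Upstream of FoxO, none of 15 tested regulators and cofactors was called, with a median of -0.07. *Igf1*, the growth factor that activates Akt, had ratios of -0.43 (p-value of Feature Extraction 0.0393) and -0.32 (0.133), a mean of -0.37. *Ppargc1a*, a coactivator of mitochondrial genes that restrains FoxO3 activity, had 0.57 (0.0066) and 0.30 (0.144), a mean of 0.44. Over all probes, dim ones included, the mean was -0.67 for *Igf1* with 3 probes and 0.32 for *Ppargc1a* with 2. By the brightest probe, *Igf1* and *Ppargc1a* both passed on array 1 alone and kept their direction on array 2. *Smad3*, a mediator of myostatin and TGF-β signals, had a mean of 0.10.

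Among FoxO target genes 2 of 23 tested were called higher and 1 lower, with a median of -0.03. *Cdkn1a*, the cell cycle inhibitor p21, had signals of 508.8 in *Gde5* skKO and 281.1 in WT on array 1, and of 505.9 and 287.3 on array 2. Both *Gde5* skKO signals were above both WT signals, and its ratios were 0.86 ± 0.22 and 0.82 ± 0.22, a mean of 0.84 with an interval from 0.53 to 1.15. With background correction and loess in limma its mean was 0.51, with an adjusted p of 0.0818. *Pdk4*, the kinase that closes pyruvate dehydrogenase and spares glucose, had signals of 35430 in *Gde5* skKO and 23830 in WT on array 1, and of 30510 and 17210 on array 2. Its ratios were 0.57 ± 0.21 and 0.83 ± 0.22, a mean of 0.70, with a limma adjusted p of 0.0258. *Mstn*, myostatin, the secreted inhibitor of muscle growth, was listed as Gdf8 and had signals of 2288 in *Gde5* skKO and 3698 in WT on array 1, and of 2186 and 3974 on array 2. Its ratios were -0.69 ± 0.21 and -0.86 ± 0.22, a mean of -0.78, with a limma adjusted p of 0.0264. The 3 genes do not share a direction, and the other 20 tested targets were not called. Of these *Bcl6* had the lowest mean, -0.35, and *Gadd45a*, a stress-induced gene, the highest, 0.40, with p-values of Feature Extraction of 0.0592 and 0.0465. *Gadd45a* was named after its values were seen. *Txnip* and *Sesn1*, the targets with a motif in the windows searched, had means of 0.22 and 0.03.

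No gene was called among the ligases and enzymes that work beside the members. None of 15 other muscle ubiquitin ligases was called, with a median of 0.00, and the means farthest from 0 were *Wwp1* and *Itch* at -0.23, *Cblb* at 0.35 and *Xiap* at 0.38. Over all probes, dim ones included, these means were -0.06 for *Wwp1*, -0.14 for *Itch*, 0.13 for *Cblb* and 0.09 for *Xiap*. *Xiap* had -0.34 on array 1 and 1.09 on array 2, so the arrays went opposite ways. *Cblb* and *Xiap* were dim, with signals from 77.88 to 110.8 and from 67.93 to 144.7, and their limma means were 0.09 and 0.05. *Wwp1* and *Itch* belong to the same HECT family as *Nedd4*, and *Cblb* encodes a ligase that degrades the insulin receptor substrate IRS-1. None of 17 tested genes for ubiquitin, its activating and conjugating enzymes, cullin-ring subunits and deubiquitinases was called, with a median of 0.03. The means farthest from 0 in that list were *Ube2b* at -0.20, *Skp1* at -0.18, *Uba1* at 0.17 and *Ube2n* at 0.17. Over all probes they were -0.03 for *Ube2b*, 0.69 for *Uba1* and 0.23 for *Ube2n*, and *Skp1* had 1 probe.

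Among substrates and partners of the ligases 1 of 18 was called higher and 1 lower, with a median of 0.03. *Mybpc1*, which encodes slow-type myosin binding protein C and is listed as 8030451F13Rik, had signals of 12380 in *Gde5* skKO and 8023 in WT on array 1, and of 13600 and 8036 on array 2. Its ratios were 0.63 ± 0.21 and 0.76 ± 0.22, a mean of 0.69, with a limma adjusted p of 0.0303. *Tab2*, an adaptor that binds such signalling chains and couples Traf6 to the kinase TAK1 and is listed as Map3k7ip2, had signals of 1210 in *Gde5* skKO and 1682 in WT on array 1, and of 1184 and 1623 on array 2. Its ratios were -0.47 ± 0.21 and -0.45 ± 0.21, a mean of -0.46, but its limma adjusted p was 0.172. A second *Tab2* probe gave -0.41 and -0.44, and the remaining probe was not well above background. *Pias4*, a SUMO ligase that is a substrate of *Trim32*, had a mean of -0.27, and *Sqstm1*, the p62 adaptor that binds *Traf6*, had 0.31. *Pias4* was dim, with signals between 57.2 and 86.17, and its limma mean was -0.01.

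Of 12 other tested transcription factors of atrophy 1 was called lower and none higher, with a median of 0.01. *Cebpd*, a glucocorticoid-responsive factor that acts in muscle wasting and in fat cell formation, had signals of 5536 in *Gde5* skKO and 9935 in WT on array 1, and of 6086 and 11240 on array 2. Its ratios were -0.84 ± 0.22 and -0.89 ± 0.22, a mean of -0.86, with a limma adjusted p of 0.0148. *Smad2*, a mediator of myostatin signals, had a mean of -0.35, *Nfkb1*, an NF-κB subunit, 0.15 and *Hdac4*, a repressor that rises with denervation, 0.23, and none of them was called. Of the 6 adipocyte markers tested, 5 were called lower, as *Cebpd* and *Mstn* were, and *Fabp4* was not. Their median was -0.77, and their part in these calls was not tested.

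**Figure D4:**
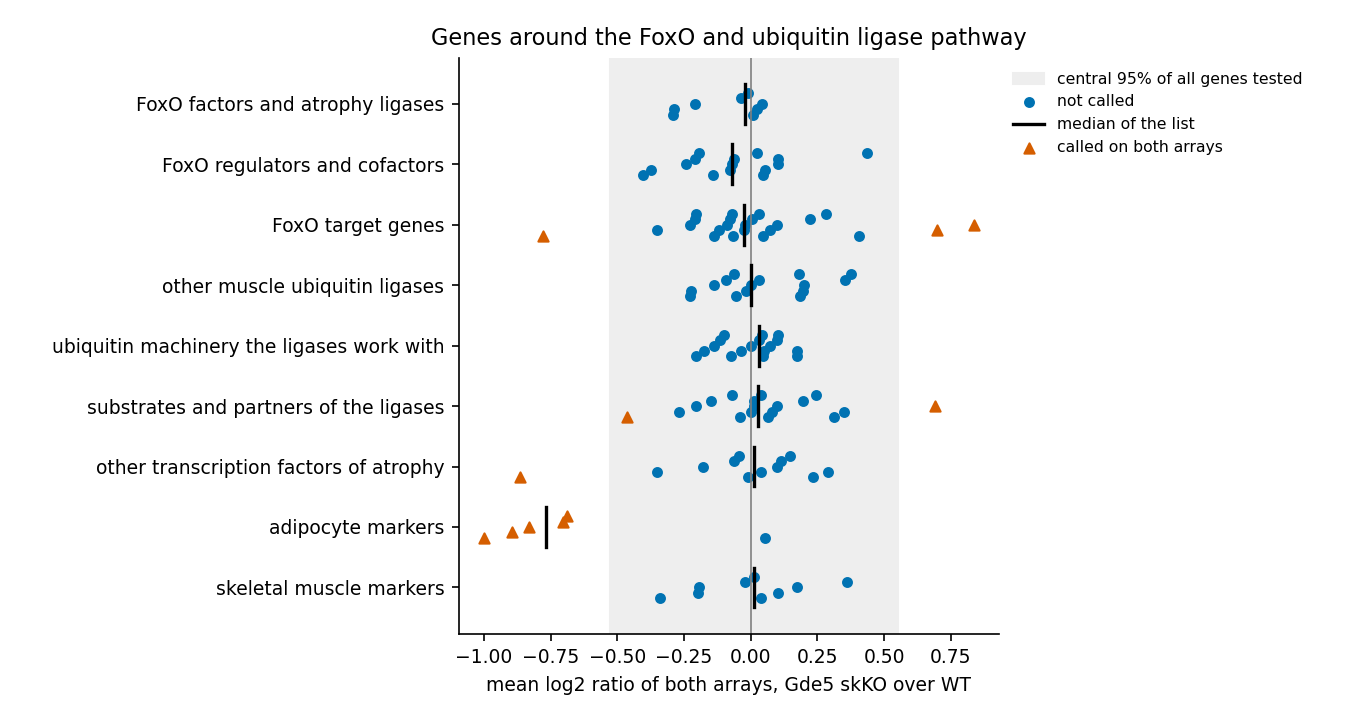
Mean log2 ratio of both arrays, *Gde5* skKO over WT, on the x axis for each tested gene of the members, the 6 pathway lists and the adipocyte and skeletal muscle markers, with vertical lines at each list's median and a grey band for the central 95% of all tested genes. All members and most pathway genes lie inside the band, and 5 adipocyte markers, *Cdkn1a*, *Pdk4*, *Mybpc1*, *Mstn* and *Cebpd* lie outside it.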

How the data were processed

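Feature Extraction was run by the authors, version 9.5.3.1 per the file headers. The deposited log10 ratio of Cy5 over Cy3 was taken per spot after the authors' background subtraction, detrending and dye normalization, together with the p-value that the authors' software gives. The deposited intensity of each spot and of its local background was used for the alternative ratios (normexp with an offset of 50, then loess) of limma 3.58.1 in R 4.3.3. The log10 ratio also stands, with fewer digits, in the deposited value table of the series.

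Each ratio was put on the log2 scale with *Gde5* skKO as numerator, and the 245 probes with more than 1 spot were averaged. Control spots, spots with outlier marks (164 and 200 of 43379) and, after the values were seen, spots with local background over 1.5 times their signal (7 and 0) were left out. Well above background were 53.2% (Cy5) and 44.6% (Cy3) of spots in the *Gde5* skKO channel and 45.6% (Cy3) and 47.4% (Cy5) in the WT channel. On each array the share was higher in Cy5, whichever genotype carried it. The 41112 probes were named through RefSeq genes on GRCm38.p6, with 24331 matched on accession, 6295 on symbol and 2422 on a synonym, while 8064 kept the array's name. Probe coordinates were copied from the array files (mm8), and promoter sequences are RefSeq's. Both arrays lie on 1 slide, so slide could not be a block. The number of arrays limits the precision. Steps were tested on simulated data with log2 changes of 1.5 in 200 genes. With the software's errors as the only noise, the call rule called 98% of these and 0.15% of unchanged genes. Such changes are larger than the mean of any tested member, so the simulation does not cover changes of the members' size.

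The members and lists were chosen with earlier results of these data known. All members are named with their probes, and of each list the called genes and the 2 with signal in both channels farthest from 0 in each direction, besides *Gde5*. A gene that this rule names is not reported here. Markers of skeletal muscle, adipocytes, liver, immune cells, blood, endothelium, nerve, fibroblasts and tendon, and satellite cells were counted. Outside the first 2 lists, 1 liver marker, *Apoh*, was called, higher with a mean of 0.81. The other 2 tested liver markers had means below 0 and were not called, and 3 were too dim. Alternatives were other background corrections, probe rules, filters, thresholds, limma's test and each array alone. Tables were handled in pandas 2.3.3 and numpy 2.4.6 under Python 3.11.15, with p-values from scipy 1.17.1 and plots from matplotlib 3.10.9.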

Additional observations from a re-analysis of the deposited data

How the results depend on the processing

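No member was called higher under any alternative. By array 1 alone *Traf6* passed as lower and by array 2 alone *Trim32*, so the count of members called lower ranged from 1 to 1 there, against 0 under the other alternatives. *Trim63* and *Nedd4* kept their direction throughout, from -0.26 to -0.16 and from 0.02 to 0.22. The mean of *Foxo1* became -0.0003 over all probes. That of *Fbxo32* became -0.0216 with normexp and loess, on which both limma tests run, and -0.0228 without background correction. *Fbxo30* became 0.0341 and *Fbxo21* 0.046 over all probes. Single arrays ranged from -0.20 to 0.25 for *Foxo1*, from -0.14 to 0.16 for *Fbxo32*, from -0.18 to 0.11 for *Fbxo30* and from -0.0562 to 0.0388 for *Fbxo21*. Over all probes *Trim32* became 0.56 and *Traf6* 0.093, where each mean includes a probe not well above background, at 1.40 and 0.47. The median over the members ranged from -0.12 on array 1 alone to 0.04 over all probes.

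Alternatives on the pathway lists were chosen after seeing the data. There, genes called higher numbered 6 and lower 7 by limma's unadjusted test, and 7 to 7 and 5 to 8 by single arrays. With Feature Extraction p-values adjusted within each array 1 gene stayed called higher, and *Pdk4*, *Mybpc1* and *Tab2* lost their calls. *Tab2* also lost it at a p under 0.01 and in limma's adjusted test, and *Cdkn1a* in the latter. The cause was not tested. The adipocyte markers' median was -0.44 with normexp and loess and -0.47 without background correction, and 2 were called by limma's adjusted test. The labels give 1 group, in which each array sets both genotypes against each other, so each ratio was already paired within its array. No further pairing was made. *Foxo3* and *Foxo4* are limited by signal over background.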
